A study of Homo sapiens with 4 samples.

Results

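Cholesterol synthesis and its control by the SREBP2 pathway were examined in Liq-treated ES2 cells through 30 genes. These were the enzymes from acetyl-CoA to cholesterol (20 genes), the SREBP regulators (5 genes) and genes of sterol transport and storage (5 genes), taken by symbol as a pathway list, with earlier results of these data known. All 30 were among the 23228 genes of the count tables. MSMO1 and SC5D appear there under their older symbols SC4MOL and SC5DL. The set does not cover every gene of the pathway.

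ES2, an established line from human ovarian cancer, is used by the study as a cisplatin-resistant model, and Liq (liquiritigenin) is a plant flavanone used there as an agonist of estrogen receptor beta (ERβ). Total RNA was sequenced from cells kept for 24 h with vehicle (2 samples) or with Liq (2 samples) at a dose that the methods of the study give as 100 μM. The labels name no other agent and no genetic change, and all 4 samples grew in RPMI without phenol red in which the serum, 5% FBS, had been stripped with dextran-charcoal. The design holds 1 cell line, 1 dose and 1 time. The labels number the samples within a group without saying that they came from separate cultures, so the p-values measure the spread between these samples, which may be technical.

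Between 34573053 and 48933893 reads per sample were counted on genes, and 13546 genes passed the filter on low counts. Replicates differed by more than sampling noise, with a chi-square per degree of freedom of 6.5 in vehicle and 11.6 in Liq against 60.5 to 74.7 across groups, and each was kept as its own sample. Of the line's markers, the mesenchymal VIM was counted at 5870 to 7600 CPM (read counts scaled to the library size with TMM factors) and the keratin KRT7 at 238 to 378 CPM. KRT7 was higher in Liq (log2 fold change 0.51, edgeR adjusted p = 1.081e-05), whereas VIM (-0.28), KRT18 (-0.24) and WT1 (-0.68) were lower and KRT8 (0.13) was not called. EPCAM, a marker of epithelial ovarian cancers, had 1 to 3 counts in each sample, and PAX8 lay between 0.337 and 1.23 CPM and was also lower in Liq (log2 fold change -1.34, edgeR adjusted p = 0.002137). ESR2, the gene of ERβ, had 4 to 14 counts per sample and was not tested. The leukocyte markers PTPRC and CD3E had 0 or 1 count in each sample and CD14 had 3 to 11, and ALB, APOB and APOA1, which mark liver or gut, had 0 to 9. The endothelial markers PECAM1 and VWF had 1 to 10 counts, whereas CDH5, also listed as endothelial, lay between 44.6 and 52.9 CPM (log2 fold change -0.16, edgeR adjusted p = 0.1673).

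Cells build cholesterol from acetyl-CoA through mevalonate, isoprenoid diphosphates, squalene and lanosterol. The transcription factor SREBP2, encoded by SREBF2, is held in the endoplasmic reticulum by SCAP and the INSIG proteins when sterols are plentiful. When sterols run low SCAP carries it to the Golgi, where it is cut, and the freed fragment raises transcription of most enzymes of the pathway and of INSIG1. Liver X receptors (LXR) respond to oxysterols in the opposite situation and favour export of sterol from the cell.

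Liq-treated cells had higher transcript levels of most genes of the pathway. Of the 30 genes, 29 were expressed highly enough to be tested, with 121 to 40360 counts in every sample, and the other, NPC1L1, was not. At an adjusted p under 0.05 (quasi-likelihood test of edgeR, 2 samples a group), 20 of the 29 rose and 0 fell. Over all 13546 tested genes, 24% changed by the same rule, 12.6% upward and 11.3% downward, and 6.45% changed by at least 1.5-fold. Without vehicle replicate 1, and likewise without vehicle replicate 2, 13 genes of the pathway rose and 0 fell, against 5.85% and 6.27% of all genes tested in these fits that rose. The called increases were modest in size, from 0.21 to 0.86 on the log2 scale, and 7 of them reached 1.5-fold (HMGCS1, MVD, LSS, SC4MOL, DHCR7, STARD4 and NPC2), against 4.29% of all tested genes that rose and 2.16% that fell by 1.5-fold. With the unadjusted p of edgeR under 0.05 and 1.5-fold, again 7 rose and 0 fell, against 5.37% and 2.49% of all tested genes (7.85% in either direction). The methods of the study give these cutoffs but with DESeq, and its own list of genes was not reproduced here. The median log2 fold change, Liq over vehicle, was 0.36 for the 29 genes and 0.01 for all tested genes. In 25 of the 29 both Liq samples lay above both vehicle samples, and in 0 did both lie below, where 31.5% of all tested genes lay above and 30.2% below. Counts are relative to the rest of each library, so they do not give an amount of RNA per cell. Each library pools RNA over cells, so a higher level in each cell and more cells that express a gene cannot be told apart.

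**Figure D1:**
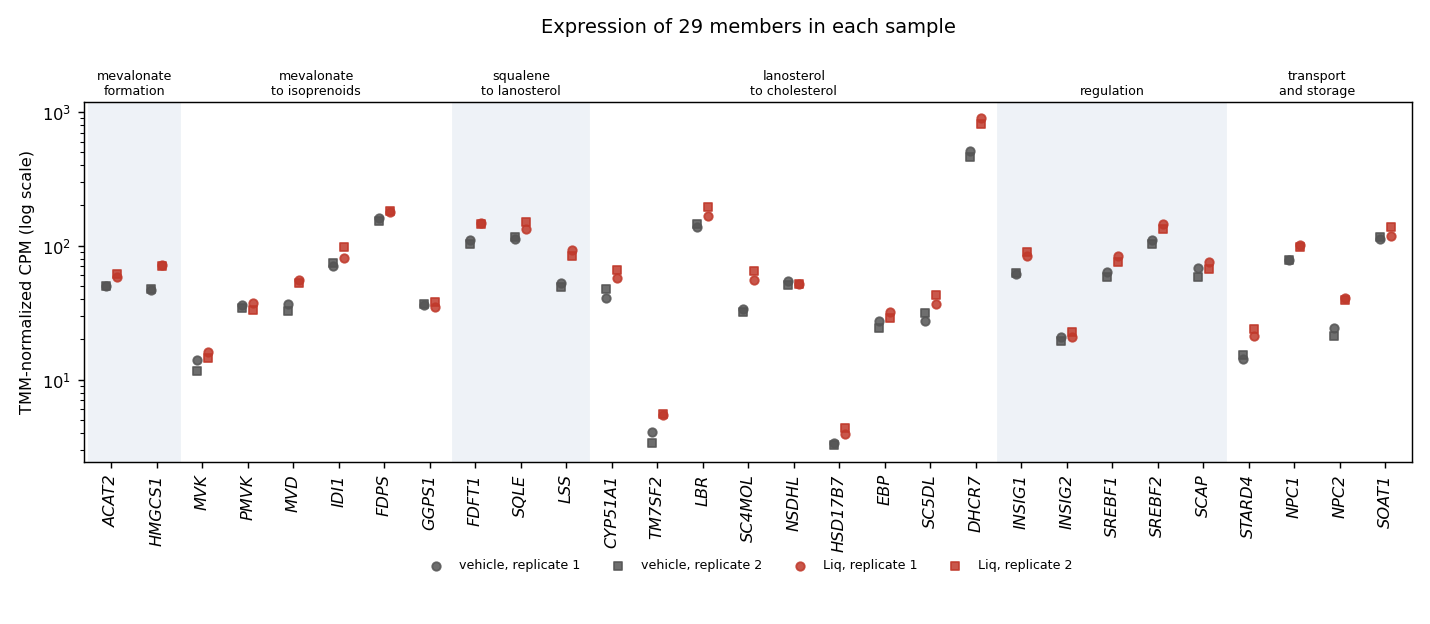
TMM-normalized CPM on a log axis for the 29 tested genes in each of the 4 samples, ordered by pathway step, with vehicle in grey and Liq in red (circles are replicate 1, squares replicate 2). DHCR7 has the highest CPM in every sample and the Liq points lie above the vehicle points in 25 of 29 genes.

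The 30 genes together took 0.205% and 0.2% of the reads on genes under vehicle, and 0.299% and 0.296% under Liq. DHCR7 made up much of this rise. The 20 enzymes summed to 1567 and 1509 CPM in vehicle and to 2215 and 2196 CPM in Liq, of which DHCR7 was 32.5% and 30.5% in vehicle and 40.5% and 36.6% in Liq. Without DHCR7 the enzyme sums were 1058 and 1049 CPM in vehicle and 1318 and 1392 CPM in Liq, so the groups were also apart without it.

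At the entry to the pathway, both genes rose. For this and each later step, the shares over all tested genes were 12.6% upward and 11.3% downward. The steps held between 2 and 9 tested genes, and whether they differed was not tested. ACAT2, which encodes the cytosolic thiolase that joins acetyl-CoA units, was counted at 50.4 and 50.3 CPM in vehicle and 58.6 and 61.4 CPM in Liq (log2 fold change 0.25 ± 0.08 SE, edgeR adjusted p = 0.02243). The ACAT2 call was lost when either vehicle sample or Liq replicate 2 was left out (adjusted p = 0.05077 to 0.2289), and 36.3% of its transcript overlaps exons of other genes on the opposite strand, among them TCP1. HMGCS1, the synthase that makes HMG-CoA (chromosome 5 from 43287572 to 43313614, GRCh37), was at 46.8 and 47.9 CPM in vehicle and 72.2 and 71.1 CPM in Liq. The Liq values of HMGCS1 lay well above the vehicle values, with little spread within either pair, a log2 fold change of 0.60 ± 0.08 (SE, edgeR adjusted p = 3.239e-06). An unnamed gene on the opposite strand covers 46.7% of the HMGCS1 transcript in the GENCODE annotation. Overlaps of more than 10% were found for 7 of the 30 genes, the others being CYP51A1 (90.1%), EBP (57.1%) and GGPS1 (26.1%), each with unnamed genes on the same strand, FDPS (41.4%) and LSS (11.7%), and reads there could have been left out or given to the other gene.

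From mevalonate to the isoprenoid diphosphates, 3 of 6 genes rose and 0 fell. MVD, the decarboxylase that yields isopentenyl diphosphate (chromosome 16 from 88718343 to 88729569, GRCh37), was at 36.7 and 32.8 CPM in vehicle and 55.4 and 52.6 CPM in Liq. Its log2 fold change of 0.64 ± 0.09 (SE, edgeR adjusted p = 5.074e-06) was the highest of the 6, and the groups did not overlap. The 2 kinases that act just before it were not called. Mevalonate kinase, MVK, was at 14 and 11.6 CPM in vehicle and 16.0 and 14.6 CPM in Liq (log2 fold change 0.25, adjusted p = 0.09622). PMVK, the phosphomevalonate kinase, was at 35.8 and 34.0 CPM in vehicle and 37.1 and 33.2 CPM in Liq, with overlapping groups and a log2 fold change of 0.01 (SE 0.09).

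IDI1, the isomerase that turns isopentenyl diphosphate into its allylic partner, was at 70.5 and 74.8 CPM in vehicle and 81.6 and 97.5 CPM in Liq. Both Liq values were higher but they were far apart (log2 fold change 0.30, edgeR adjusted p = 0.01003). The IDI1 call was lost without Liq replicate 2 (log2 fold change 0.17), without vehicle replicate 1 (0.26) and without vehicle replicate 2 (0.34), though each value was upward. FDPS, farnesyl diphosphate synthase, was at 160 and 152 CPM in vehicle and 179 and 183 CPM in Liq (log2 fold change 0.21, adjusted p = 0.02794), and its call was lost when either vehicle sample was left out (adjusted p = 0.1728 and 0.3498). FDPS has 8 named pseudogene copies in the genome and IDI1 and CYP51A1 have 3 each, which can take reads from the parent gene or lose them as multiply aligned. GGPS1, which makes geranylgeranyl diphosphate for protein prenylation and so leads away from sterols, was at 35.9 and 36.4 CPM in vehicle and 34.9 and 38.2 CPM in Liq, with overlapping groups (log2 fold change 0.02, SE 0.09).

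**Figure D2:**
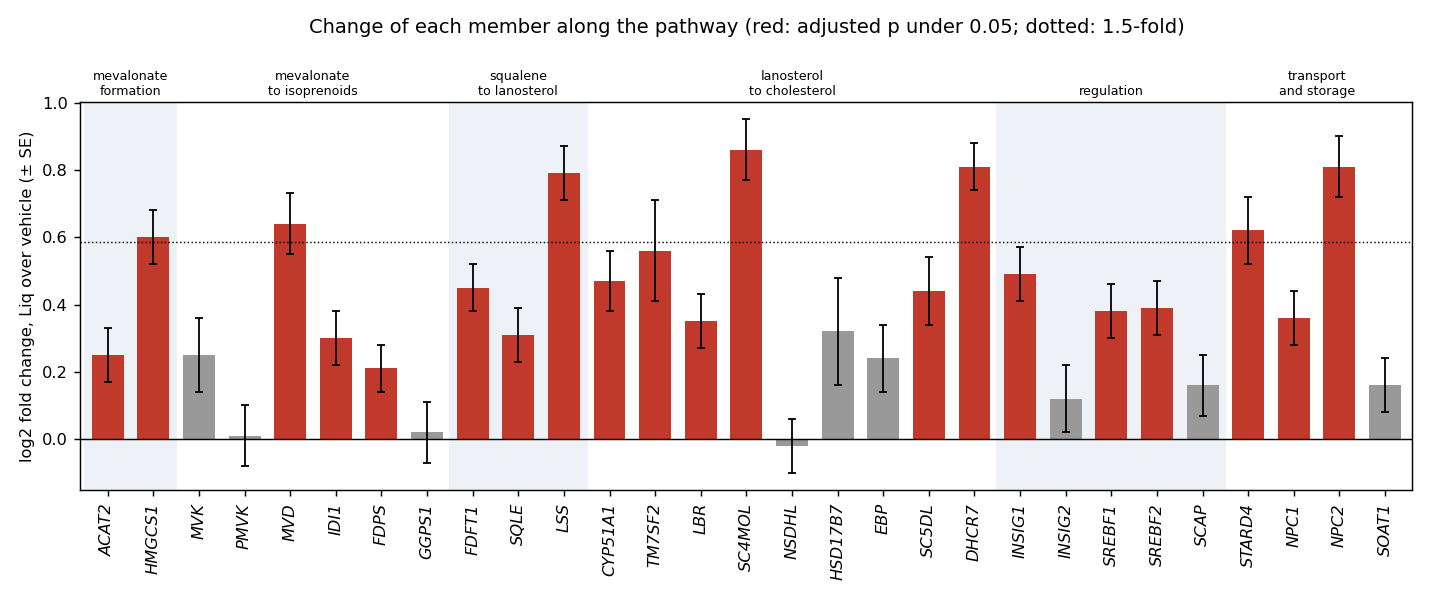
Log2 fold change of Liq over vehicle for the 29 tested genes in pathway order, with bars from 0 and error bars of 1 SE from edgeR. Red bars are the 20 genes with an adjusted p under 0.05, grey bars the other 9, and the dotted line marks 1.5-fold, which 7 genes pass.

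All 3 genes from farnesyl diphosphate to lanosterol rose. FDFT1, the squalene synthase that commits carbon to sterols, was at 111 and 103 CPM in vehicle and 147 and 145 CPM in Liq (log2 fold change 0.45 ± 0.07 SE, edgeR adjusted p = 6.385e-05). SQLE, the epoxidase that adds oxygen to squalene, was at 113 and 117 CPM in vehicle and 134 and 151 CPM in Liq (log2 fold change 0.31, adjusted p = 0.004007), a call that was lost when either vehicle sample was left out (adjusted p = 0.1098 and 0.05581). LSS, the cyclase that closes the rings to form lanosterol (chromosome 21 from 47608055 to 47648738, GRCh37), was at 53.1 and 49.4 CPM in vehicle and 92.5 and 84.3 CPM in Liq. Its log2 fold change of 0.79 ± 0.08 (SE, adjusted p = 5.211e-08) was the highest before lanosterol.

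Between lanosterol and cholesterol 6 of 9 genes rose and 0 fell. SC4MOL, the oxidase that starts the removal of the methyl groups at C4 (chromosome 4 from 166248819 to 166264316, GRCh37), had the highest log2 fold change of the 29 tested genes. It was at 33.8 and 32.0 CPM in vehicle and 55.0 and 64.5 CPM in Liq, a log2 fold change of 0.86 ± 0.09 (SE, edgeR adjusted p = 5.906e-08). NSDHL, the dehydrogenase of the same demethylation complex, was at 54.2 and 51.0 CPM in vehicle and 52.0 and 51.8 CPM in Liq, so the Liq values lay within the vehicle range (log2 fold change -0.02 ± 0.08 SE, adjusted p = 0.8828). HSD17B7, the ketosteroid reductase of that complex, was low at 3.38 and 3.23 CPM in vehicle and 3.91 and 4.34 CPM in Liq. Its groups did not overlap, but the log2 fold change of 0.32 (SE 0.16) did not pass the threshold (adjusted p = 0.1332), and 2 named copies make its count uncertain.

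CYP51A1, the lanosterol demethylase, most of whose transcript overlaps other annotated genes, was at 41.0 and 47.9 CPM in vehicle and 57.2 and 65.3 CPM in Liq (log2 fold change 0.47, edgeR adjusted p = 0.0004252, and 0.36 with adjusted p = 0.05994 without vehicle replicate 1). The next double bond is reduced by the products of TM7SF2 and LBR, which share this sterol reductase activity, and LBR also anchors chromatin at the nuclear envelope. TM7SF2 was at 4.06 and 3.39 CPM in vehicle and 5.45 and 5.56 CPM in Liq (log2 fold change 0.56 ± 0.15 SE, adjusted p = 0.006417). LBR was at 139 and 146 CPM in vehicle and 168 and 196 CPM in Liq (log2 fold change 0.35 ± 0.08 SE, adjusted p = 0.001498). Per kilobase of transcript, vehicle cells had 38.2 CPM of LBR and 2.36 CPM of TM7SF2. The TM7SF2 call was lost without vehicle replicate 2 (adjusted p = 0.1329) and with the DESeq2 Wald test (adjusted p = 0.05321), and that of LBR without vehicle replicate 1 (adjusted p = 0.05796). EBP, the sterol isomerase, was at 27.4 and 24.2 CPM in vehicle and 32.0 and 29.1 CPM in Liq and was not called (log2 fold change 0.24, adjusted p = 0.06512).

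The last steps of the branch both rose. SC5DL, the desaturase that gives 7-dehydrocholesterol, was at 27.6 and 31.5 CPM in vehicle and 36.8 and 43.0 CPM in Liq (log2 fold change 0.44, edgeR adjusted p = 0.001529). The SC5DL call was lost without vehicle replicate 1 (0.34, adjusted p = 0.09543). DHCR7, the reductase that turns 7-dehydrocholesterol into cholesterol (chromosome 11 from 71139239 to 71163914, GRCh37), was at 509 and 461 CPM in vehicle and 897 and 804 CPM in Liq. Its log2 fold change was 0.81 (SE 0.07), and its adjusted p of 1.218e-09 was the lowest of the 29 genes. DHCR7 and LSS were higher in Liq replicate 1 than in Liq replicate 2, whereas SC4MOL, LBR, CYP51A1, SC5DL and IDI1 were higher in Liq replicate 2. For all of these except SC4MOL, vehicle replicates 1 and 2 differed in the same direction. Over the tested genes of the pathway, 15 of 29 were higher in Liq replicate 2. The median gap between the Liq samples was 0.13 on the log2 scale for these genes and 0.12 for all tested genes.

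Per kilobase of transcript, DHCR7 was also the most abundant of the 30 genes, at 185 CPM per kb in vehicle and 324 in Liq, with the length taken from the GENCODE canonical transcript. FDPS followed at 110 CPM per kb in vehicle and FDFT1 at 52.6, while TM7SF2 (2.36) and HSD17B7 (2.17) were the lowest of the enzymes. Over the 29 tested genes the log2 fold change had a Spearman rank correlation of -0.15 with the vehicle level per kb (Pearson's r -0.03 with the log2 level). The 2 quantities share the vehicle libraries, and the genes are not independent replicates.

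To show the sequence around the starts of these genes, 120 bases of promoter are printed for SREBF2, for the 5 enzymes that rose by 1.5-fold and for NSDHL, which was not called. Capitals mark the CCAAT box (CCAAT, or ATTGG where it lies on the other strand) and, in SREBF2, also the sterol regulatory element core TCACNCCAC. Each run is written 5′ to 3′ on the strand of its gene, from the RefSeq promoter table of build GRCh38.p14. The run of LSS holds neither motif, and its 1 CCAAT match lies further from the start. That of SREBF2 ends 34 bases before the start and the others end at the base before it.
SREBF2 (chr22:41832952-41833071, plus strand): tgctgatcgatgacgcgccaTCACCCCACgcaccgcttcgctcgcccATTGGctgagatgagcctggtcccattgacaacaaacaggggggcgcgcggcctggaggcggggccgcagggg
SC4MOL (chr4:165327549-165327668, plus strand): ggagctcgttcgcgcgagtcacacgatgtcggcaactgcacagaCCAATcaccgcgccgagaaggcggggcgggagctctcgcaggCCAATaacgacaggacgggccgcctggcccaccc
DHCR7 (chr11:71448394-71448513, minus strand): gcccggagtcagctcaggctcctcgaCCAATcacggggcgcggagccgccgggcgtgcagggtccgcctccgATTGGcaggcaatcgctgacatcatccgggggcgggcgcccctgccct
MVD (chr16:88663092-88663211, minus strand): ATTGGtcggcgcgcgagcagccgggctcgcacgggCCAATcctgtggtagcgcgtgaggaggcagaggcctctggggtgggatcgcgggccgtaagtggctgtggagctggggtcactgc
HMGCS1 (chr5:43313413-43313532, minus strand): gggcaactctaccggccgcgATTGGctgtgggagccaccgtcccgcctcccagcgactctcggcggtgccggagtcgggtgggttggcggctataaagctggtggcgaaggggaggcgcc
LSS (chr21:46228775-46228894, minus strand): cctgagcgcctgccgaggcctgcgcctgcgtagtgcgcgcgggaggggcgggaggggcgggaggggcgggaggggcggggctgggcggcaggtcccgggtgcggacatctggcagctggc
NSDHL (chrX:152830943-152831062, plus strand): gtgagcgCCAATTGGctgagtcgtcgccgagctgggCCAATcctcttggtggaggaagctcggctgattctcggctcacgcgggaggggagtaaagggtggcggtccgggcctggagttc

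The promoter table held 27 of the 30 genes, with windows from 250 bases before to 50 bases after the start. CCAAT lay on either strand in 18 of 27 windows (66.7%), against 34.6% of all 35116 promoters in the table. It was in 12 of 17 windows of genes that rose and in 6 of the other 10, among them NSDHL with 5 matches, 2 of which overlap as CCAATTGG. The GC box GGGCGG was found in 23 of 27 (85.2%), against 45% of all promoters. The core TCACNCCAC was found in 1 of 27, in SREBF2 at 133 bases before the start, against 1.13% of all promoters. The 35116 promoters were not limited to genes tested here, so the shares do not compare the pathway with other expressed genes. A match is a run of letters and not a measured binding site, and other forms of the sterol regulatory element were not searched.

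Of the 5 regulators 3 rose and 0 fell, against 12.6% and 11.3% of all tested genes. SREBF2, which encodes SREBP2 itself (chromosome 22 from 42229109 to 42303310, GRCh37), was at 110 and 103 CPM in vehicle and 145 and 134 CPM in Liq (log2 fold change 0.39 ± 0.08 SE, edgeR adjusted p = 0.000405). SREBF1, whose products act mainly on fatty acid synthesis, was at 63.3 and 58.4 CPM in vehicle and 83.2 and 75.0 CPM in Liq (log2 fold change 0.38, adjusted p = 0.001254, lost without vehicle replicate 2 at adjusted p = 0.0834). The INSIG genes encode paired retention proteins. INSIG1, itself a known SREBP target, was at 61.7 and 62.5 CPM in vehicle and 84.5 and 89.9 CPM in Liq (log2 fold change 0.49 ± 0.08 SE, adjusted p = 3.724e-05). INSIG2, with 5.61 CPM per kb in vehicle against 21.4 for INSIG1, was at 20.7 and 19.3 CPM in vehicle and 20.9 and 22.6 CPM in Liq, and was not called (log2 fold change 0.12 ± 0.10 SE, adjusted p = 0.3882). SCAP, the escort of SREBP, was at 67.9 and 58.4 CPM in vehicle and 75.2 and 66.5 CPM in Liq, with overlapping groups (log2 fold change 0.16, adjusted p = 0.1746). Whether the 2 INSIG genes differed in their change was not tested.

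Of the transport and storage genes, 3 of the 4 tested rose and 0 fell, against 12.6% and 11.3% of all tested genes. NPC2, the soluble lysosomal protein that binds cholesterol released from lipoproteins (chromosome 14 from 74942895 to 74960880, GRCh37), was at 24.2 and 21.1 CPM in vehicle and 40.7 and 39.1 CPM in Liq. Its log2 fold change was 0.81 ± 0.09 (SE, edgeR adjusted p = 3.379e-07). NPC1, the membrane protein that takes cholesterol over from NPC2 for export from the lysosome, was at 78.7 and 77.6 CPM in vehicle and 102 and 98.1 CPM in Liq (log2 fold change 0.36 ± 0.08 SE, adjusted p = 0.001099, lost without vehicle replicate 2 at adjusted p = 0.05221). STARD4, a cytosolic sterol carrier, was at 14.3 and 15.2 CPM in vehicle and 21.3 and 24.0 CPM in Liq (log2 fold change 0.62 ± 0.10 SE, adjusted p = 5.272e-05). SOAT1, which esterifies cholesterol for storage, was at 113 and 116 CPM in vehicle and 118 and 138 CPM in Liq. The Liq values of SOAT1 were further from each other than the lower was from the vehicle samples, and it was not called (log2 fold change 0.16, adjusted p = 0.1334).

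NPC1L1, the transporter of intestinal sterol uptake, had 0 and 3 counts in vehicle and 3 and 6 counts in Liq. A level of 3 counts corresponds to 0.0613 to 0.0868 CPM in these libraries. NPC1L1 did not pass the filter on low counts, so whether it differed between the groups was not tested.

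**Figure D3:**
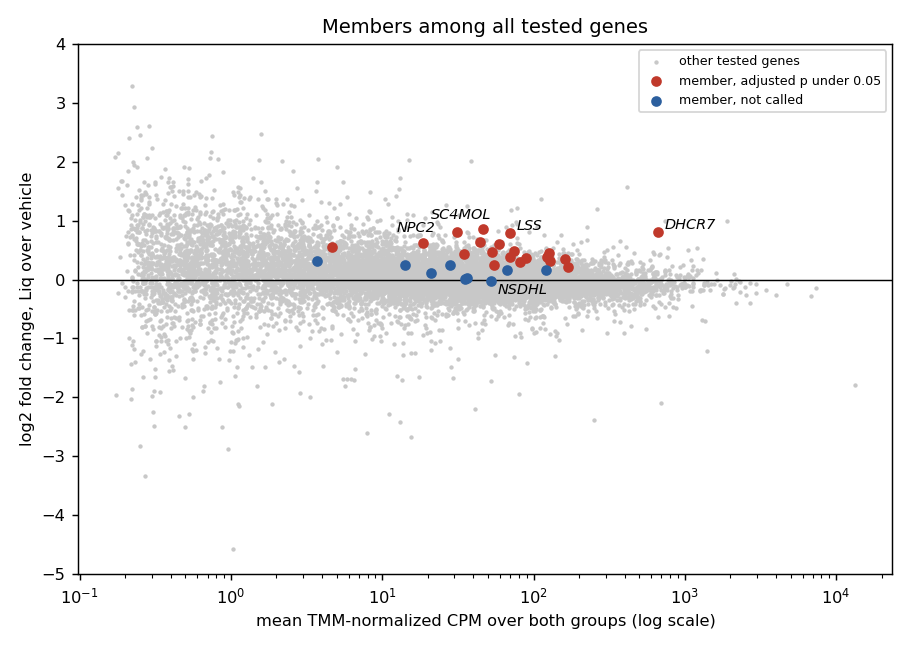
Log2 fold change of Liq over vehicle against mean TMM-normalized CPM (log axis) for all 13546 tested genes in grey, with the called genes of the pathway in red and the others in blue. The pathway genes lie between -0.02 and 0.86, inside the range of the other genes, which reached -4.57 and 3.28 at low counts.

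The 5 lists of neighbouring genes were read from the same fit, in which 12.6% of all tested genes rose and 11.3% fell. Further SREBP targets and genes of acetyl-CoA supply rose in 6 of 9 and fell in 0, with a median log2 fold change of 0.30. The lowest p-values were those of MMAB (a cobalamin enzyme gene that shares a bidirectional promoter with MVK), at 28.4 and 28.6 CPM in vehicle and 41.2 and 38.3 CPM in Liq, LPIN1 (a phosphatidate phosphatase) with a log2 fold change of 0.39, and PNPLA3 (a lipid droplet protein) with 0.55. ACLY (-0.13) and ACAT1 (-0.07) of this list, named after their values were seen, were not called. In each of them both Liq samples lay below both vehicle samples. In the list of sterol transport and ester turnover, 5 of 13 tested genes rose (38.5%) and 1 fell (7.69%). LIPA, the lysosomal acid lipase that frees cholesterol from its esters, rose from 130 and 134 CPM to 167 and 193 CPM (log2 fold change 0.45, edgeR adjusted p = 0.0001053), and GRAMD1C, which encodes a sterol transfer protein, rose by 0.59. NCEH1, a neutral cholesterol ester hydrolase, fell from 112 and 114 CPM to 67.3 and 72.9 CPM (log2 fold change -0.68, adjusted p = 2.208e-07).

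The list of SREBP processing and sterol sensing moved little, with a median log2 fold change of 0.00. Of its 9 tested genes 1 rose (11.1%, near the 12.6% of all tested genes) and 0 fell. The site 1 and site 2 proteases that cut SREBP (MBTPS1 and MBTPS2, named for their role after their values were seen) had log2 fold changes of 0.05 and 0.03. The gene that rose was ERLIN2, which encodes a lipid raft protein of the endoplasmic reticulum, from 117 and 116 CPM to 137 and 140 CPM (log2 fold change 0.24, edgeR adjusted p = 0.01469). Among 14 genes that use isoprenoids for other products, 0 rose and 2 fell (14.3%, near the 11.3% of all tested genes), with a median of -0.05. RABGGTA, a subunit of the enzyme that prenylates Rab proteins, fell from 19.2 and 18.9 CPM to 14.4 and 13.0 CPM (log2 fold change -0.48, edgeR adjusted p = 0.001031), and FNTB, a farnesyltransferase subunit with 45 to 101 counts per sample, had a log2 fold change of -0.80. Of 6 tested genes of LXR and sterol export 1 rose (16.7%, against 12.6% of all tested genes) and 0 fell, with a median log2 fold change of 0.22. Both Liq samples lay above both vehicle samples in 3 of the 6 (50%, against 31.5% of all tested genes) and below in 0. The gene of this list that rose was LPCAT3, a lysophospholipid acyltransferase, which went from 22 and 21.4 CPM to 29.8 and 31.7 CPM. Whether any list differed from another was not tested.

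**Figure D4:**
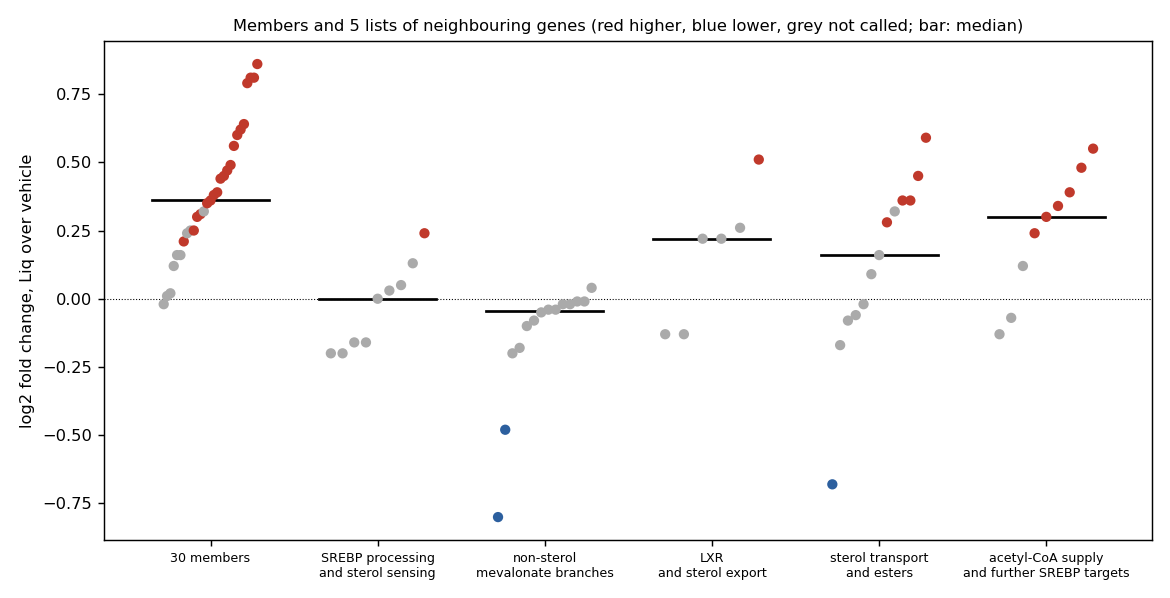
Log2 fold change of Liq over vehicle for each tested gene of the pathway and of 5 neighbouring lists, with bars at the medians and colours for genes called higher (red), called lower (blue) or not called (grey). The medians are 0.36 for the pathway genes, 0.30 for further SREBP targets and acetyl-CoA supply, and 0.22 for LXR and sterol export. They are 0.16 for sterol transport and esters, 0.00 for SREBP processing and sterol sensing, and -0.05 for the non-sterol branches.

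The increases were compared under 11 other analyses of the same counts, which varied the scaling, the filter, the test, the replicate block and the samples kept. Of the 20 genes called higher, 10 kept the call in all 11, namely HMGCS1, MVD, FDFT1, LSS, SC4MOL, DHCR7, INSIG1, SREBF2, STARD4 and NPC2. The other 10 each lost it in at least 1. Among the 9 that were not called, MVK, EBP, SCAP and SOAT1 were called higher in at least 1, and PMVK, GGPS1, NSDHL, HSD17B7 and INSIG2 in 0. With offsets that follow the expression level, 21 genes were called higher and 0 lower, against 11.1% and 9.98% of all tested genes. Whether genes of the pathway kept their calls more often than other called genes was not tested.

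**Figure D5:**
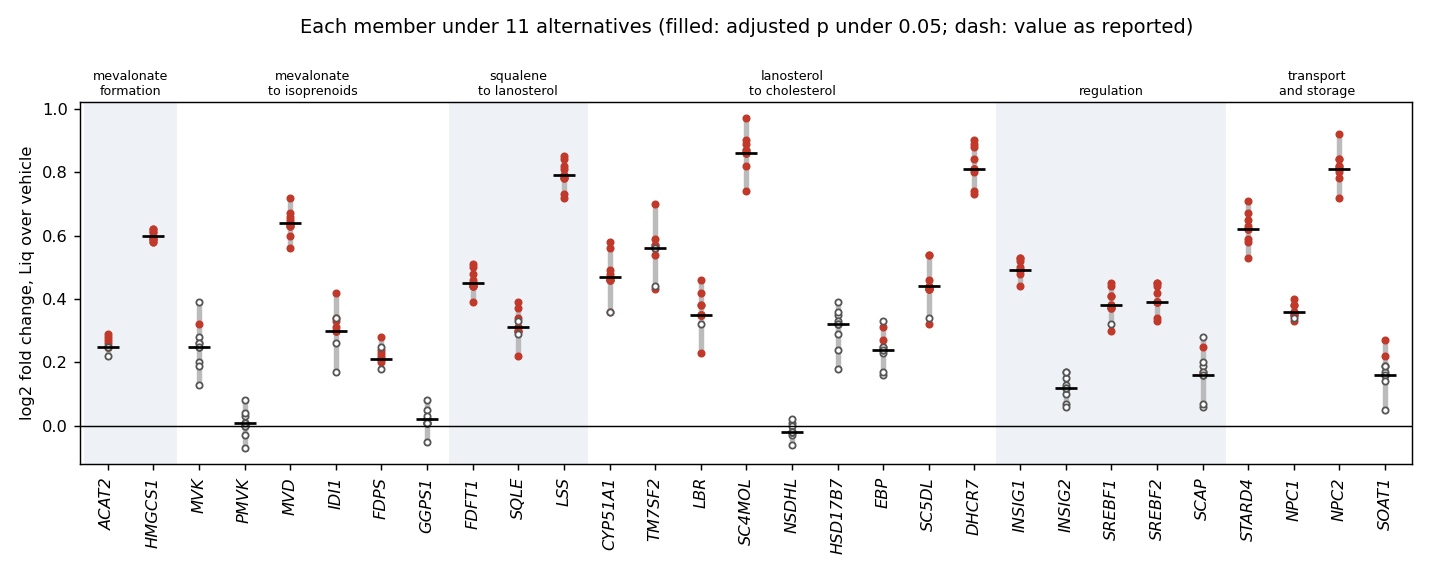
Log2 fold change of Liq over vehicle for each tested gene under 11 alternatives (points, filled where the adjusted p is under 0.05), with a dash at the value as reported and a grey line over the range. The values of SC4MOL range from 0.74 to 0.97 and those of DHCR7 from 0.73 to 0.90, while those of PMVK, GGPS1 and NSDHL lie on both sides of 0.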

How the data were processed

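RNA-seq of ES2 cells was analysed from 4 count tables, 2 for vehicle and 2 for Liq, grouped by the sample titles. Per the labels, reads were processed with bcl2fastq 2.17.1.14, aligned to hg19 with TopHat2 2.0.8b and counted with HTSeq. The authors deposited raw read counts per gene, whole numbers without normalization. HTSeq leaves out reads with several alignments and reads on overlapping genes, whose tally lines held 35.6% to 36.2% and 0.544% to 0.557% of all counts. Whether a read with several alignments was tallied more than once is not given, so these are not shares of reads. The version, strand setting and annotation of HTSeq are not given in the sources used here, and tally lines were left out. The 30 genes and the neighbouring lists were chosen with earlier results of these data known. A few genes of the neighbouring and marker lists are not reported here and were left out of the counts over those lists.

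Genes were kept by filterByExpr (minimum count 10, minimum total 15), scaled by TMM and tested with glmQLFit and glmQLFTest in edgeR 4.0.16 (R 4.3.3, limma 3.58.1) without a block, with Benjamini-Hochberg adjustment over 13546 genes. The SE is the size of the log2 fold change divided by the square root of F. A gene was called at an adjusted p under 0.05, without the 1.5-fold threshold of the study, which is given as an alternative. An exact permutation test of 2 against 2 samples cannot give a p below 0.3333. DESeq2 1.42.0 served as an alternative, and the fits were tested on simulated data. All 30 genes were named, and up to 3 called genes with the lowest p from each list. Gene positions, transcript lengths and exon overlaps are from GENCODE v44 on GRCh37, which matched all 30 genes and is newer than the authors' annotation. Promoters are from RefSeq (GRCh38.p14). RT-qPCR and the other assays of the study were not analysed here.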

Additional observations from a re-analysis of the deposited data

How the results depend on the processing

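Of 20 genes called, all higher, 13 were left in each of the fits without vehicle replicate 1 and without vehicle replicate 2, and 21 were called in each of those without Liq replicate 1 and without Liq replicate 2. The lone sample of a group was then assumed to vary like the other group. Other sterol genes called, 16 of 51 tested, were 9 without vehicle replicate 2, 10 without vehicle replicate 1, 16 without Liq replicate 1 and 21 without Liq replicate 2. With all samples, 31.4% of these 51 genes were called (25.5% higher and 5.88% lower), against 24% of all tested genes (12.6% and 11.3%). Calls over all tested genes were also fewer in the fits without a vehicle sample, and more without Liq replicate 2. Whether the other sterol genes lost calls more readily than all tested genes was not tested. With at least 1.5-fold required, 7 of the 29 genes of the pathway and 3 of the 51 other sterol genes were called. These counts were the same at the adjusted and at the unadjusted p of edgeR under 0.05, where 6.45% and 7.85% of all tested genes were called. At the adjusted p, 1 of the other sterol genes was higher and 2 were lower. The median log2 fold change of the 29 genes, 0.355, was 0.383 with upper-quartile normalization, 0.411 with loess offsets, and between 0.316 (without Liq replicate 2) and 0.393 (without Liq replicate 1) with 1 sample left out. Genes that changed sign were all uncalled and near 0. With 1 sample left out, PMVK ranged from -0.07 (without Liq replicate 1) to 0.08 and was at -0.03 without vehicle replicate 2, GGPS1 ranged from -0.05 (without Liq replicate 2) to 0.08, and NSDHL ranged from -0.06 to 0.02 (without vehicle replicate 1) and was at 0.01 with upper-quartile normalization. The cause was not tested.

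With the replicate number as a block, 24 genes of the pathway were called, all higher, as were 24 of the other sterol genes and 4795 of all tested genes against 3245 without it. The labels link same-numbered samples by the number alone. Over all tested genes the correlation of their deviations was 0.0483, while the gap between replicates 1 and 2 had the same direction in both groups for 62.9% of all tested genes and for 22 of the 29. Whether the numbers mark pairs cannot be told from these values. Depth limits HSD17B7 and TM7SF2, which had the lowest counts of the 29.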
